A study of Mus musculus with 16 samples.

Results

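The genes described here build the contractile apparatus of striated muscle and couple its excitation to contraction. They are 46 genes named as sarcomere or excitation-contraction genes, read on the array through probe sets that pair with 1 gene symbol, with the probe set of the highest mean over the samples taken for each gene. All 46 had a signal above 5 in every sample, the minimum used for the whole array, and so all 46 were among the 17215 genes tested. They were split by role into 3 embryonic, 7 fast, 7 slow and 3 cardiac isoforms, 10 membrane genes, and 16 further genes of the filaments, Z-disc and M-band, called lattice genes below.

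RNA came from mandibular molar germs of C57Bl6 mouse embryos at embryonic day (E) 14.5, microdissected and pooled by 4 germs per the labels. Signals were measured in 8 pools from *Rsk2-/Y* embryos and 8 pools from wild-type (WT) embryos on Affymetrix Mouse Gene arrays. *Rsk2-/Y* embryos are males with the X-linked gene of the kinase RSK2 inactivated, a mouse model of Coffin-Lowry syndrome, and the study's controls were WT male littermates. By the prefix of their names the pools form an AZN and an ABH series of 4 pools per genotype, and what the prefixes stand for is not given in the sources used here. The array signal of the RSK2 gene *Rps6ka3* does not check the genotype, since its means were 10.1 in *Rsk2-/Y* pools and 9.99 in WT pools, and the probes are spread over the whole gene.

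In a sarcomere, myosin heavy and light chains form the thick filament and pull on thin filaments of actin, tropomyosin and troponin. Titin spans from the Z-disc to the M-band. A nerve impulse opens the acetylcholine receptor, the L-type calcium channel then triggers the ryanodine receptor, and calcium released from the sarcoplasmic reticulum binds troponin C until the SERCA pump returns it. Embryonic skeletal muscle expresses embryonic and perinatal myosins together with isoforms that adult muscle keeps mainly in slow fibres or in the heart. A tooth germ itself consists of dental epithelium and dental mesenchyme and has no striated muscle, while the jaw muscles form nearby at this stage.

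The markers of the labelled tissue were present throughout. The mean log2 signal of 18 dental epithelium genes lay between 9.13 and 9.57 in *Rsk2-/Y* pools and between 9.15 and 9.85 in WT pools, and that of 12 dental mesenchyme genes between 9.34 and 10.1 in *Rsk2-/Y* pools and between 9.51 and 10.1 in WT pools. Correlations between arrays ran from 0.976 to 0.997, and no 2 arrays were identical. Since the labels do not say that pools came from separate litters, p-values measure only the spread between these pools.

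The 46 genes moved together between pools. The pool AZN_MolairesMutant3 lay 1.24 above the mean of the 16 pools (log2, averaged over the 46 genes), and ABH_14A lay 0.89 above it. Both are *Rsk2-/Y* pools. The other end was held by ABH_16A at -0.68 and ABH_15A at -0.63, also *Rsk2-/Y* pools, and by the WT pool ABH_13A at -0.64. The highest WT pool, AZN_MolairesWT2, stood at 0.44. Averaged over all genes tested, every pool lay within 0.03 of 0, where the processing, which equalises arrays, tends to hold it. In bulk RNA, fewer cells of a type and less RNA per cell cannot be told apart.

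AZN_MolairesMutant3 was the highest pool for 34 of the 46 genes, against 12.4% of all genes tested, and ABH_14A for 8 genes, against 6.02%. These were the 2 highest pools for 35 of the 46 genes, against 1.92% of all genes. *Myl2*, *Myl3*, *Tcap* and *Ckm* were the 4 genes that peaked elsewhere, in AZN_MolairesMutant1 or AZN_MolairesMutant4. ABH_16A was the lowest pool for 22 genes, against 6.02% of all genes, and ABH_13A for 12, against 5.10%. The median gene spanned 2.03 log2 units between its lowest and highest pool, against 0.50 over all genes tested, and *Klhl41* spanned the most among the 46, at 3.67.

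**Figure D1:**
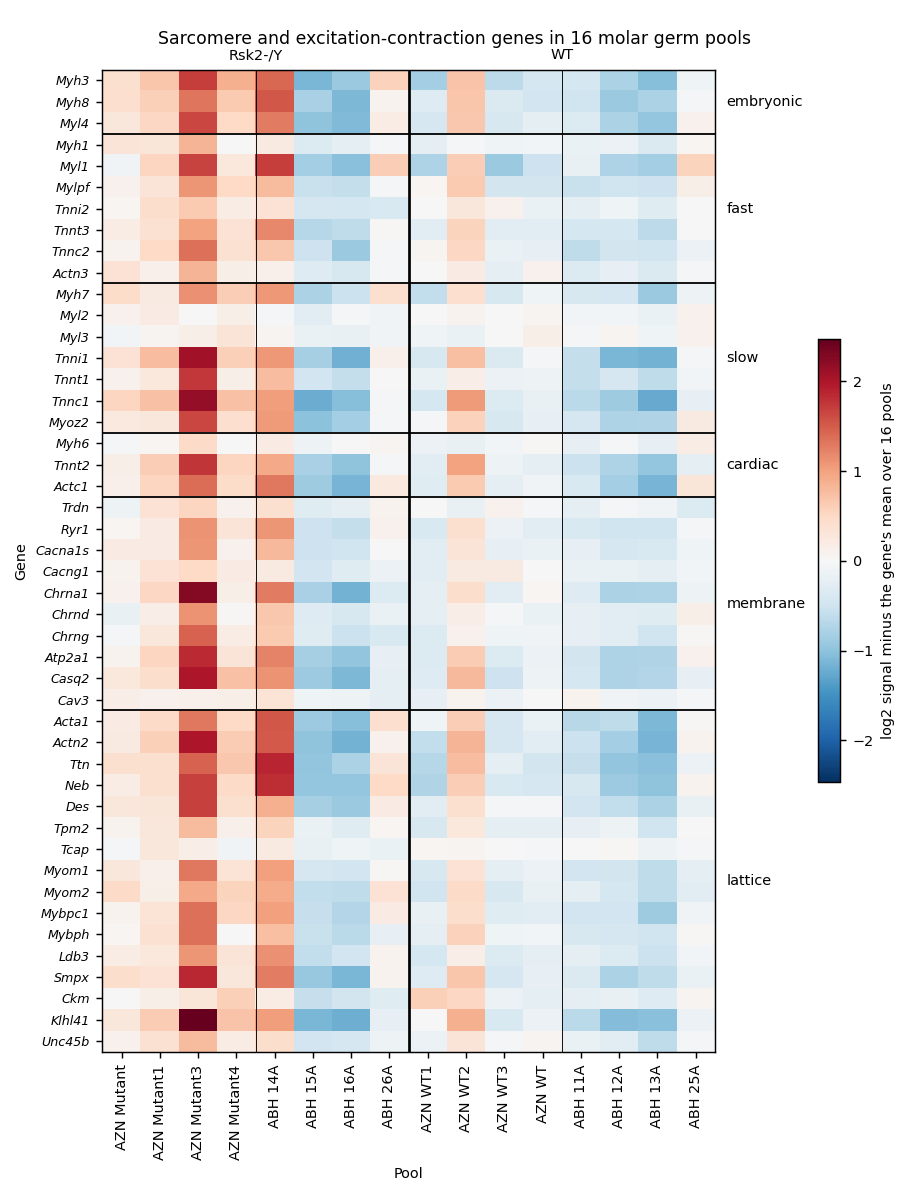
Each row is a gene and each column a pool, with *Rsk2-/Y* pools left of the thick line and WT pools right of it, and the colour gives the log2 signal minus the gene's mean over 16 pools. AZN_MolairesMutant3 and ABH_14A are red and ABH_15A and ABH_16A blue in nearly every row, while *Myl2*, *Myl3*, *Tcap* and *Cav3* hardly change colour.

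The spread was wider in *Rsk2-/Y* pools than in WT pools for each of the 46 genes, against 65.4% of all genes tested. The median SD was 0.68 in *Rsk2-/Y* pools and 0.36 in WT pools (log2, n = 8 each).

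Between genotypes, the sarcomere genes had higher means in *Rsk2-/Y* pools but none passed the test. The log2 fold change was above 0 for 45 of 46 genes, against 39.7% of all genes tested, and beyond 1.2-fold for 34 of them, against 0.86%. The median was 0.49 over the 46 genes and -0.02 over all genes. With limma, at an adjusted p under 0.1 and a fold change of 1.2, no member was called higher and none lower, and 0% of all genes were called in either direction. The adjusted p of every member rounded to 1. At an unadjusted p under 0.05, 9 members were higher with limma, against 0.982% of all genes, 5 with an exact permutation test over the 12870 arrangements of 8 against 8, and 5 with the methods' t-test, and none was lower by limma. The methods' t-test and the exact permutation test also made 0 calls after adjustment.

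The size of the difference depended on AZN_MolairesMutant3 and ABH_14A, which were singled out for their high signals of these genes. The median over the 46 genes was 0.29 without AZN_MolairesMutant3, 0.35 without ABH_14A, and 0.15 without both, when 39 genes were above 0, against 41.9% of all genes, and 8 were beyond 1.2-fold, against 0.471%. Over all genes the median without both was -0.01. The 9 members with an unadjusted limma p under 0.05 numbered 3 without AZN_MolairesMutant3, 3 without ABH_14A, 0 without both, and 22 without the WT pool AZN_MolairesWT2, against shares of all genes between 0.90% and 1.48%, and no member was called in these fits. No member had all 8 *Rsk2-/Y* pools above the WT mean, against 108 of all 17215 genes. At least 7 were above it for 2 members, *Myh6* and *Tpm2*, against 567 of all genes. Both counts are near the share over all genes.

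**Figure D2:**
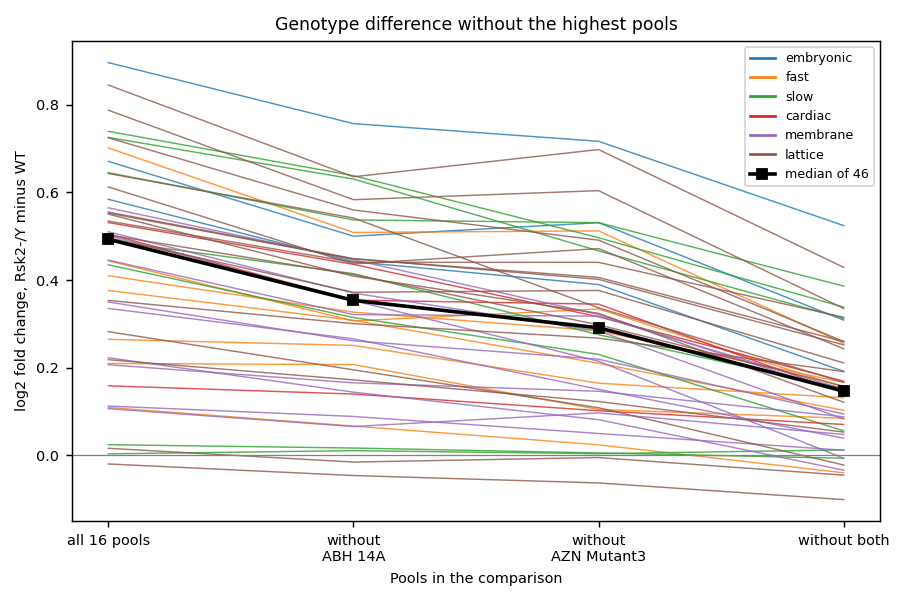
Lines follow the log2 fold change of each gene, *Rsk2-/Y* minus WT, with all 16 pools, without ABH_14A, without AZN_MolairesMutant3 and without both, coloured by class. The black squares are the median of the 46 genes, which was 0.49 with all pools and 0.15 without both.

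The embryonic isoforms had the largest class median, at 0.67, and all 3 were beyond 1.2-fold. *Myh3*, the embryonic myosin heavy chain, ranged from 8.03 through a median of 9.78 to 10.86 in *Rsk2-/Y* pools, and from 8.11 through 8.62 to 9.86 in WT pools. The *Rsk2-/Y* values thus lay on both sides of the WT values, with ABH_15A the lowest of the 16 pools and AZN_MolairesMutant3 the highest. Its log2 fold change of 0.90 (standard error 0.36, 1.86-fold) was the largest of the 46 genes, and its unadjusted exact permutation p was 0.0462. *Myh8*, the perinatal heavy chain, had 6.73, 8.34 and 9.36 as lowest, median and highest signal in *Rsk2-/Y* pools, against 6.92, 7.41 and 8.53 in WT pools. *Myl4*, a light chain of embryonic muscle and of the atria, had 8.63, 10.09 and 11.36 in *Rsk2-/Y* pools, against 8.76, 9.34 and 10.38 in WT pools. Both overlapped between genotypes like *Myh3*, with log2 fold changes of 0.67 and 0.58. *Myh3*, *Myh8* and *Myh1* are closely related neighbours in 1 gene cluster, as are *Myh6* and *Myh7*, so probes may take up RNA of a neighbour.

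Among the fast isoforms the median was 0.38, and 5 of 7 were beyond 1.2-fold. *Myl1*, the fast essential light chain, spanned 8.91 to 11.65 with a median of 10.34 in *Rsk2-/Y* pools, and 9.03 to 10.56 with a median of 9.32 in WT pools. *Tnnt3*, fast troponin T, spanned 7.63 to 9.52 with a median of 8.60 in *Rsk2-/Y* pools, and 7.69 to 8.88 with a median of 8.07 in WT pools. Their log2 fold changes were 0.70 and 0.44, and ABH_14A was the highest pool for both. *Tnni2*, fast troponin I, was the flattest of this class, at 7.03 to 8.12 (median 7.59) in *Rsk2-/Y* pools and 7.17 to 7.76 (median 7.41) in WT pools, a log2 fold change of 0.11. *Myh1*, the fast heavy chain of adult muscle, stayed near the minimum signal. It ran from 5.29 to 6.46 with a median of 5.73 in *Rsk2-/Y* pools and from 5.27 to 5.68 with a median of 5.50 in WT pools, a log2 fold change of 0.26. *Actn3*, the fast alpha-actinin, ran from 7.47 to 8.71 (median 7.99) in *Rsk2-/Y* pools and from 7.52 to 8.08 (median 7.75) in WT pools.

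The slow isoforms split into a group that varied widely and a pair that hardly varied. *Tnni1*, slow troponin I, ran from 7.31 through 8.98 to 10.58 in *Rsk2-/Y* pools, and from 7.35 through 8.13 to 9.25 in WT pools. For *Tnnc1*, the troponin C of slow and cardiac muscle, the values were 7.05, 8.91 and 10.45 in *Rsk2-/Y* pools, against 7.02, 7.88 and 9.33 in WT pools. The log2 fold changes of 0.74 and 0.73 had standard errors of 0.38 and 0.41, and for *Tnnc1* the second highest pool was the WT pool AZN_MolairesWT2. *Myl2*, the regulatory light chain of slow and ventricular muscle, ran from 5.08 through 5.33 to 5.56 in *Rsk2-/Y* pools, and from 5.19 through 5.36 to 5.45 in WT pools. Its log2 fold change was 0.0034, the smallest of the 46 genes in absolute value, and it was negative once arrays were centred on their medians (-0.0059). *Myl3*, the essential light chain of the same fibres, was at 0.02. The class median was 0.49.

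Of the cardiac isoforms, which embryonic skeletal muscle also expresses in part, *Tnnt2* and *Actc1* had differences near those of the embryonic isoforms and *Myh6* a smaller one. *Tnnt2*, cardiac troponin T, had 8.0, 9.33 and 10.77 as lowest, median and highest signal in *Rsk2-/Y* pools, against 8.03, 8.74 and 9.98 in WT pools. *Actc1*, cardiac alpha-actin, had 9.69, 11.19 and 12.21 in *Rsk2-/Y* pools, against 9.68, 10.57 and 11.48 in WT pools. The genotypes overlapped over most of their range in both genes, with log2 fold changes of 0.53 and 0.51. *Myh6*, the alpha heavy chain of the heart, lay between 6.0 and 6.61 (median 6.16) in *Rsk2-/Y* pools and between 5.93 and 6.31 (median 6.02) in WT pools, a log2 fold change of 0.16. Of 10 further genes of the heart, 3 were above 0, against 39.7% of all genes, and the median was -0.02. Their mean signal lay between 6.16 and 6.58 in *Rsk2-/Y* pools and between 6.24 and 6.40 in WT pools. *Sln* had the largest change of these, at 0.12, and *Nppb* the next, at -0.07.

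The membrane genes had the smallest class median, 0.34, and 6 of 10 were beyond 1.2-fold. *Casq2*, the calcium store protein calsequestrin of slow and cardiac muscle, ran from 5.44 through 6.90 to 8.54 in *Rsk2-/Y* pools and from 5.79 through 6.17 to 7.35 in WT pools. *Atp2a1*, the calcium pump SERCA1, ran from 6.84 through 8.01 to 9.64 in *Rsk2-/Y* pools and from 7.05 through 7.47 to 8.42 in WT pools. The lowest and the highest pool of both were *Rsk2-/Y* pools, and the log2 fold changes were 0.56 and 0.51. *Cav3*, the muscle caveolin, was flat, at 6.05 to 6.60 (median 6.37) in *Rsk2-/Y* pools and 6.06 to 6.35 (median 6.21) in WT pools. *Cacng1*, the gamma subunit of the L-type calcium channel, lay between 6.16 and 7.12 (median 6.77) in *Rsk2-/Y* pools and between 6.37 and 6.85 (median 6.50) in WT pools. The log2 fold change rounded to 0.11 in both genes. The channel's pore subunit *Cacna1s* was at 0.35 and the ryanodine receptor *Ryr1* at 0.45.

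*Chrna1*, the alpha subunit of the acetylcholine receptor, and *Trdn* were added to the named genes after their values were seen. *Chrna1* was at 9.66 in AZN_MolairesMutant3 and 8.69 in ABH_14A, while its other *Rsk2-/Y* pools lay between 6.22 and 7.92 and its WT pools between 6.62 and 7.83. Its log2 fold change was 0.50 with all pools and -0.0067 without both of these. The delta subunit *Chrnd* and the fetal gamma subunit *Chrng* were at 0.22 and 0.34 with all pools, and at -0.03 and 0.04 without both.

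*Trdn* encodes triadin, which anchors calsequestrin beside the ryanodine receptor, and the array reads it through 19 probe sets, 9 of them above the minimum signal. The probe set with the highest mean lay between 7.29 and 8.11 in *Rsk2-/Y* pools and between 7.24 and 7.69 in WT pools, a log2 fold change of 0.21. Probe set 10362422 lay between 4.69 and 8.27 (median 6.15) in *Rsk2-/Y* pools and between 4.91 and 5.88 (median 5.33) in WT pools, a log2 fold change of 1.01, above that of any member as read. The 9 probe sets ran from -0.07 to 1.01, and none passed the test. The value of *Trdn* thus depended on the probe set.

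Of the lattice genes 15 of 16 were above 0 and 13 beyond 1.2-fold, with a median of 0.54. *Ttn*, titin, ran from 7.37 through 8.74 to 10.23 in *Rsk2-/Y* pools, and from 7.30 through 7.83 to 9.11 in WT pools. *Neb*, nebulin of the thin filament, ran from 7.39 through 8.79 to 10.17 in *Rsk2-/Y* pools, and from 7.35 through 7.94 to 8.95 in WT pools. ABH_14A was the highest pool for both, and their log2 fold changes were 0.85 (standard error 0.35) and 0.79 (standard error 0.36). *Klhl41*, a Kelch protein of the sarcomere, ran from 6.40 through 8.05 to 10.07 in *Rsk2-/Y* pools, and from 6.53 through 7.34 to 8.48 in WT pools. The range across pools came to 12.7-fold, while its log2 fold change between genotypes was 0.64.

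*Tcap*, telethonin of the Z-disc, and *Ckm*, muscle creatine kinase, had differences near 0. *Tcap* lay between 6.02 and 6.48 (median 6.14) in *Rsk2-/Y* pools and between 6.09 and 6.27 (median 6.21) in WT pools. *Ckm* lay between 6.62 and 7.78 (median 7.27) in *Rsk2-/Y* pools and between 6.88 and 7.78 (median 7.03) in WT pools. At -0.02, *Ckm* was the 1 member with a log2 fold change below 0, its highest pools were AZN_MolairesMutant4 and the WT pool AZN_MolairesWT1, and its value was 0.08 within AZN. *Tcap*, at 0.02 with all pools, was at -0.02 within ABH.

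**Figure D3:**
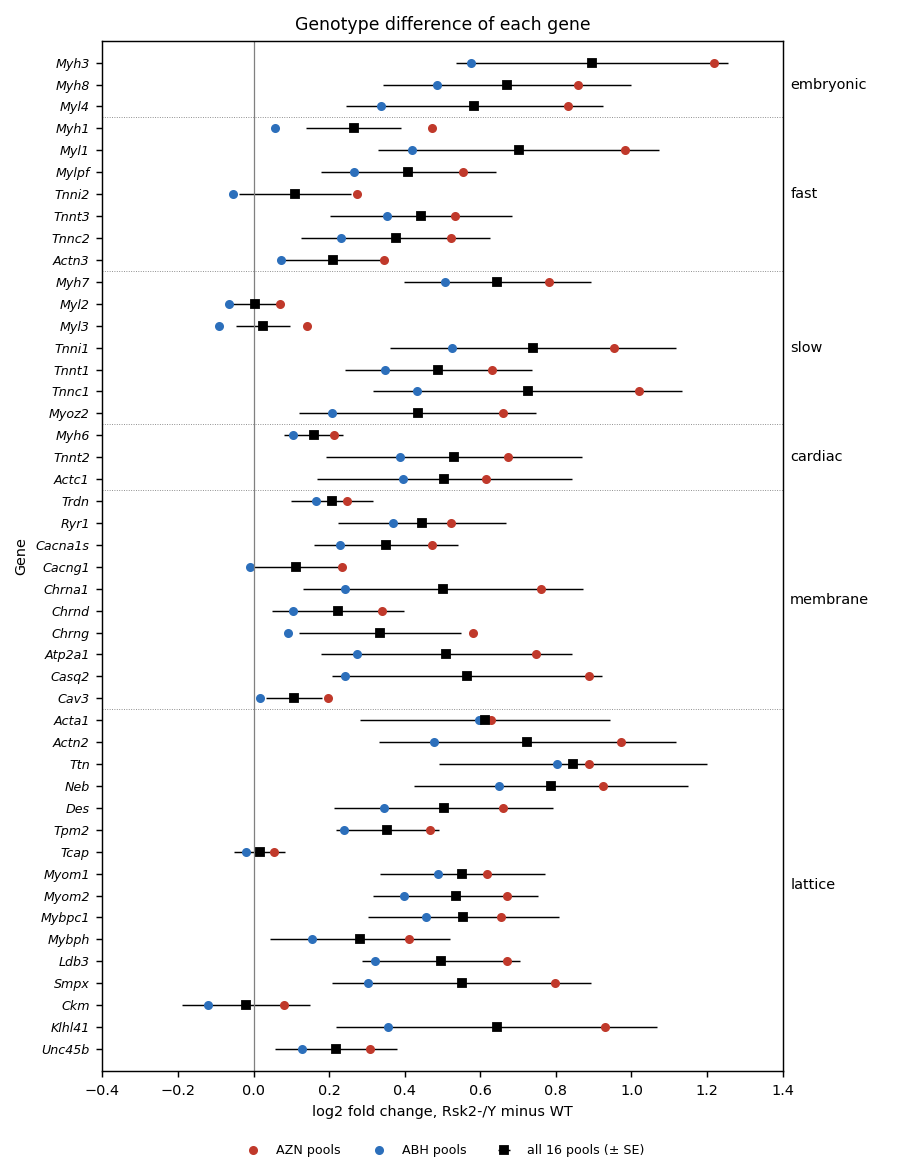
Black squares give the log2 fold change of each gene, *Rsk2-/Y* minus WT, over all 16 pools with its standard error, red points the same within AZN and blue points within ABH (4 pools against 4 each, means only). Red lies right of blue for each of the 46 genes, and *Myl2*, *Tcap* and *Ckm* lie at the zero line.

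Within each series, the median difference between genotypes was above 0. The median over the 46 genes was 0.62 in AZN, with all 46 above 0, against 48.7% of all genes, and 0.29 in ABH, with 40 above 0, against 36.6%. In ABH, the mean deviation over the 46 genes was 0.89 in the *Rsk2-/Y* pool ABH_14A. It was 0.03 in ABH_26A, -0.63 in ABH_15A and -0.68 in ABH_16A, against -0.64 to -0.02 in the WT pools. The value in ABH thus depended on ABH_14A, and ABH was not fitted without it. *Tnni2*, *Myl2*, *Myl3*, *Cacng1*, *Tcap* and *Ckm* were the 6 below 0 in ABH, from -0.12 to -0.01. The value in AZN exceeded that in ABH for all 46 genes, against 59.9% of all genes, but the interaction of genotype and series passed for no member and for 0% of all genes with limma, and 0 members had an unadjusted interaction p under 0.05, against 986 of all 17215 genes. The class medians in AZN were 0.86 for embryonic, 0.52 for fast, 0.66 for slow and 0.61 for cardiac isoforms, 0.50 for membrane and 0.66 for lattice genes. In ABH they were 0.48 for embryonic, 0.23 for fast, 0.35 for slow and 0.39 for cardiac isoforms, 0.20 for membrane and 0.35 for lattice genes. No member was called within either series, against 0.0232% of all genes in either direction within ABH and 0% within AZN.

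In ABH, the *Rsk2-/Y* pools lay on both sides of all 4 WT pools for 30 of the 46 genes, against 25.5% of all genes. In these 30 genes ABH_14A was the highest of the *Rsk2-/Y* pools throughout, and the lowest was ABH_16A in 21, ABH_15A in 8 and ABH_26A in 1. In AZN, the 4 *Rsk2-/Y* pools lay above AZN_MolairesWT, AZN_MolairesWT1 and AZN_MolairesWT3 for 37 genes, against 2.14% of all genes. This set of WT pools was chosen after the values were seen. With AZN_MolairesWT2 included, 3 genes remained without overlap, *Myh1*, *Cav3* and *Ldb3*, against 0.726% of all genes. Fitted with the series as a block, the members again gave 0 calls, and 15 of them had an unadjusted p under 0.05 and were higher, against 1.86% of all genes.

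**Figure D4:**
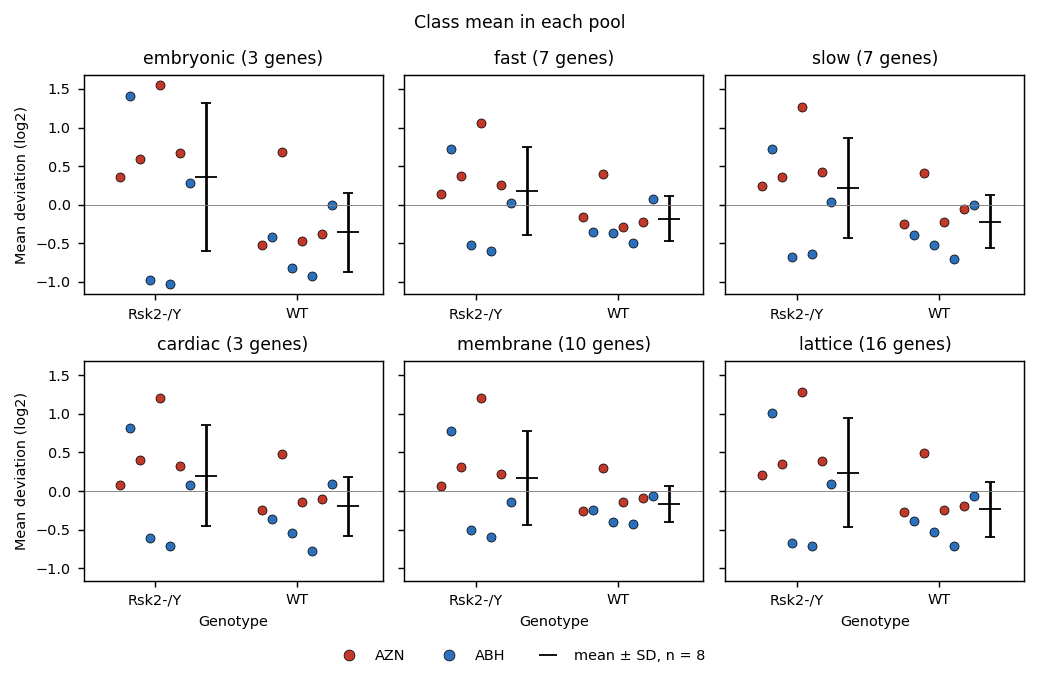
Each point is 1 pool's mean deviation over the genes of a class (log2, relative to each gene's mean over 16 pools), red for AZN and blue for ABH, with *Rsk2-/Y* left of WT and bars for the mean ± SD over 8 pools. In all 6 classes AZN_MolairesMutant3 is the highest point and ABH_14A the next, and the *Rsk2-/Y* pools reach as low as the WT pools or nearly so.

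The pool pattern was shared by the classes. In AZN_MolairesMutant3 the class means lay between 1.06 for fast and 1.56 for embryonic isoforms, and in ABH_14A between 0.72 for slow and 1.41 for embryonic isoforms. Embryonic isoforms averaged 0.36 ± 0.96 in *Rsk2-/Y* pools and -0.36 ± 0.51 in WT pools (SD, n = 8 each). Membrane genes averaged 0.17 ± 0.61 in *Rsk2-/Y* pools and -0.17 ± 0.23 in WT pools. In neither class did the difference exceed the spread among *Rsk2-/Y* pools.

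Among the members, only the comparison between the series gave calls. Its median difference was no larger than that between genotypes, which was 0.49 with no gene of the array called. All 46 genes had higher means in AZN than in ABH, against 53.7% of all genes, with a median log2 difference of 0.45 over the members and 0.02 over all genes. With limma, genotype in the model, 18 of the 46 were called higher in AZN, against 5.8% of all genes, and none lower, against 10.3%. The 18 comprised 4 of 7 slow, 3 of 7 fast, 1 of 3 cardiac, 4 of 10 membrane and 6 of 16 lattice genes. None of the 3 embryonic isoforms was called, though their log2 differences ran from 0.61 to 0.64 (adjusted p 0.11 to 0.17 with limma). Leaving out ABH_14A raised the count to 37, against 6.09% of all genes.

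*Actn3* had the smallest adjusted p, 0.0089. It lay between 7.64 and 8.71 (median 8.0) in AZN and between 7.47 and 7.99 (median 7.62) in ABH, a log2 difference of 0.39. *Cacng1* lay between 6.37 and 7.12 (median 6.83) in AZN and between 6.16 and 6.85 (median 6.46) in ABH, a log2 difference of 0.33 (adjusted p = 0.012). The series overlapped in both genes.

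*Ckm*, at -0.02 between genotypes, lay between 6.94 and 7.78 (median 7.41) in AZN and between 6.62 and 7.36 (median 6.92) in ABH, a log2 difference of 0.45 (adjusted p = 0.015). *Tnni2* lay between 7.30 and 8.12 (median 7.61) in AZN and between 7.03 and 7.82 (median 7.21) in ABH, a log2 difference of 0.38 (adjusted p = 0.017). Both were among the flattest members between genotypes.

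*Klhl41* and *Tnnc1* had the largest differences between series. *Klhl41* ran from 7.23 through 8.05 to 10.07 in AZN and from 6.40 through 6.75 to 8.63 in ABH, a log2 difference of 1.11 (adjusted p = 0.017). *Tnnc1* ran from 7.83 through 8.91 to 10.45 in AZN and from 7.02 through 7.50 to 9.30 in ABH, a log2 difference of 1.07 (adjusted p = 0.017). ABH_14A was the highest ABH pool in both. Within 1 genotype, where the median differences were 0.59 among *Rsk2-/Y* pools and 0.32 among WT pools, the counts came nearer to those of all genes. Among *Rsk2-/Y* pools 6 members were higher in AZN, or 13.0%, against 7.89% of all genes, and none lower, against 10.7%. Among WT pools it was again 6 members, against 4.42% of all genes, and none lower, against 9.33%.

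**Figure D5:**
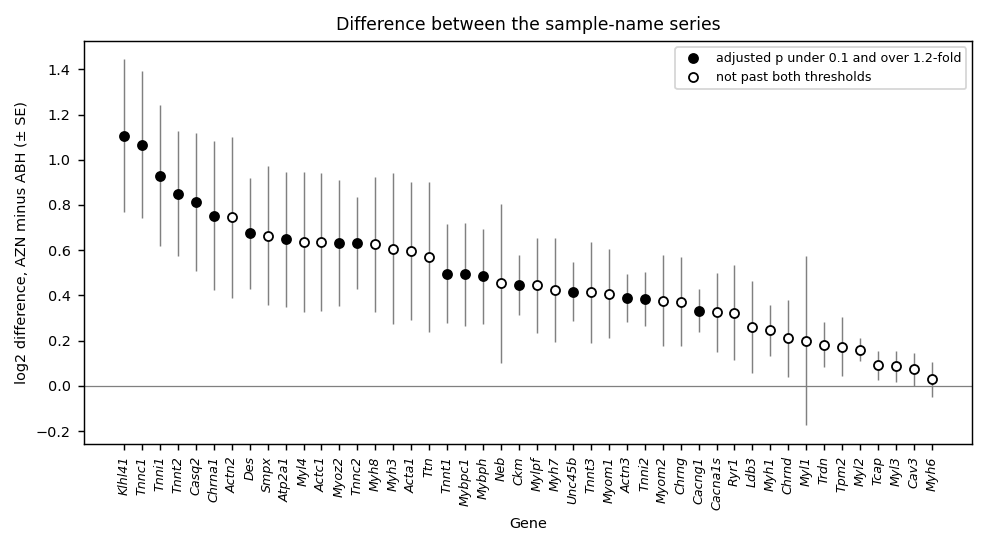
Points give the log2 difference AZN minus ABH of each gene with its standard error, ordered by size, filled where the gene passed both thresholds. All 46 points lie above 0, from 0.03 for *Myh6* to 1.11 for *Klhl41*, and 18 are filled.

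Other muscle genes, taken from lists set up by function, mostly followed the same pools, the myogenic regulators less clearly in ABH_14A. In AZN_MolairesMutant3, ABH_14A and the WT pool AZN_MolairesWT2, other sarcomere genes had mean deviations of 0.66, 0.41 and 0.14. Other excitation-contraction genes had 0.49, 0.30 and 0.17, and myogenic regulators 1.11, 0.36 and 0.32. Of all genes tested, 39.7% were above 0 between genotypes and 12.4% were highest in AZN_MolairesMutant3. Of 41 other sarcomere genes tested, 34 were above 0 between genotypes with a median of 0.16, and 29 were highest in AZN_MolairesMutant3. *Myot* and *Smyd1*, a Z-disc protein and a myosin methyltransferase, had the largest changes, 0.59 and 0.53. Of 23 other excitation-contraction genes, 20 were above 0 with a median of 0.13, and 15 peaked in that pool. *Musk*, the kinase of the neuromuscular junction, had the largest change, 0.35. *Cacna2d1*, a further channel subunit, had the next, 0.30, with another pattern, since its highest pool was ABH_15A and its value was 0.12 within AZN and 0.49 within ABH. Of 14 myogenic regulators, 13 were above 0 with a median of 0.28 and 12 peaked in that pool. Between the series, 9 of the 14 were called higher in AZN, against 5.8% of all genes, and 1 lower, against 10.3%. The lower one was *Six4*, a homeobox regulator, with a log2 difference of -0.39 (adjusted p = 0.0018 with limma). *Tmem8c*, the fusion protein myomaker, was at 0.55, and *Mef2c* at 0.42. None of these genes was called between genotypes.

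Markers of osteoblasts and of the germ tissues lay furthest from their mean in AZN_MolairesMutant3, while in ABH_14A they lay near it. Of 7 osteoblast genes 6 peaked in AZN_MolairesMutant3, against 12.4% of all genes. The mean signal of the 7 was 9.97 there, while the remaining *Rsk2-/Y* pools had 8.78 to 9.41 and the WT pools 8.64 to 9.28. In ABH_14A the osteoblast mean deviated by -0.09. The 12 dental mesenchyme genes had their lowest mean in AZN_MolairesMutant3, a deviation of -0.54, against -0.03 in ABH_14A, and 6 of them were called lower in AZN than in ABH, against 10.3% of all genes. The 18 dental epithelium genes also had their lowest mean in AZN_MolairesMutant3, a deviation of -0.41, against -0.05 in ABH_14A. Of them, 17 were below 0 between genotypes, with a median of -0.18, while 39.7% of all genes were above 0. Between the series 5 of them were called lower in AZN, against 10.3% of all genes, and 1 higher, against 5.8%. The lowest dental epithelium mean of the WT pools, 9.15, was that of AZN_MolairesWT2, the WT pool with the highest sarcomere genes. Its deviation of -0.39 was close to that of AZN_MolairesMutant3. All 6 tendon genes were above 0 between genotypes, against 39.7% of all genes, with a median of 0.26. Their mean deviated by 0.14 in AZN_MolairesMutant3 and by 0.34 in ABH_14A, close to the 0.33 of ABH_26A. Of 8 smooth muscle genes 5 were above 0, with a median of 0.0039. The part of these cell types in the values of the sarcomere genes was not tested.

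Promoters were matched by symbol for 37 of the 46 genes in RefSeq (GRCm38.p6), 42 in all, each with 250 bases before and 50 after the start of the gene. Both strands were searched for the E-box CANNTG, which the muscle determination factors bind, and its forms CAGCTG and CACCTG, the MCAT motif CATTCC, the CArG box of serum response factor and the MEF2 box. The E-box was found in 36 of the 42 promoters, against 72.3% of all 32851 promoters in the table, and its form CAGCTG in 20, or 47.6%, against 16.3%. CACCTG was in 12, or 28.6%, against 20.2%, and CATTCC also in 12, against 14.7%. A CArG box was in 6, or 14.3%, against 1.63%, and a MEF2 box in 6, against 3.19%. A match is a match of letters and does not show that a factor binds there.

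Shown are the promoters of *Klhl41* and *Chrna1*, the genes with the widest ranges across pools, of *Actc1*, which holds a CArG box, and of *Ckm*, the member with a log2 fold change below 0 between genotypes. Capitals mark E-boxes, CArG boxes and MEF2 boxes, and each sequence runs 5′ to 3′ on the strand of the gene.
Klhl41, chr2:69669870-69670169, plus strand: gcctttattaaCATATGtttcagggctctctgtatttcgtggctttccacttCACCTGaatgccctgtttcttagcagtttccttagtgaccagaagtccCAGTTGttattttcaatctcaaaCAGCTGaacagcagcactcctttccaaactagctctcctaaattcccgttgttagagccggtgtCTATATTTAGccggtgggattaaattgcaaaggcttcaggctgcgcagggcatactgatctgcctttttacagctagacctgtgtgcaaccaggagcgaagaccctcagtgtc
Chrna1, chr2:73580289-73580588, minus strand: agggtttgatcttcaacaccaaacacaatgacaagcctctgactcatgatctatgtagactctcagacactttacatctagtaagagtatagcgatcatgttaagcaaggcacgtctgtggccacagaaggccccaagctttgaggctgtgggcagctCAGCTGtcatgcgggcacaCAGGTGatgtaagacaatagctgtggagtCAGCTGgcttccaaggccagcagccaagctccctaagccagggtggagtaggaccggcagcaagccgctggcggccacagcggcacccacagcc
Actc1, chr2:114052826-114053125, minus strand: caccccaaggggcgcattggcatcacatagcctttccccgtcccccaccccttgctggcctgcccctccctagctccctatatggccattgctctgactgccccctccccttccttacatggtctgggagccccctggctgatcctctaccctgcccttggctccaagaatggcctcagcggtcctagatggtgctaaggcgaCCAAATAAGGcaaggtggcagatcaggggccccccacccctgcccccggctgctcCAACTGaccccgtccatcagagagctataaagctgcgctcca
Ckm, chr7:19410844-19411143, plus strand: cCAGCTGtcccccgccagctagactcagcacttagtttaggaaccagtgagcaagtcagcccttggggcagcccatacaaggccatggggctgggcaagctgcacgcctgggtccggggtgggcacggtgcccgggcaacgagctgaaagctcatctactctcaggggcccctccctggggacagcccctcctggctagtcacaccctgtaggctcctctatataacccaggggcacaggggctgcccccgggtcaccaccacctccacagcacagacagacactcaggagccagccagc

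*Klhl41* holds 4 E-boxes, 1 of them CAGCTG and 1 CACCTG, and a MEF2 box that begins 63 bases before the start of the gene. *Chrna1* holds 3 E-boxes, of which CAGCTG occurs at 92 and at 44 bases before the start and CACCTG, read on the other strand, at 73. *Actc1* holds a CArG box at 47 bases before the start and 1 E-box. *Ckm* holds 1 E-box, CAGCTG, at 249 bases before the start. The E-box CAGCTG was thus present both in a promoter of a gene that varied widely across pools and in that of *Ckm*.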

How the data were processed

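RNA of 8 *Rsk2-/Y* and 8 WT pools of mandibular molar germs was measured, and the labels gave each pool's genotype. The authors deposited log2 signals per probe set, which come from RMA as run in Affymetrix Expression Console (version 1.3.1.187). RMA corrects background, equalises arrays and summarises probes. Since arrays give no counts, their number limits the precision. Of 35556 probe sets, 21789 pair with 1 symbol, and 18834 of these exceeded a signal of 5 in at least 1 sample and were tested. The labels give 4 germs per pool and 150 ng of RNA, and which pools shared a litter is not given in the sources used here.

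Genotypes, series (genotype as covariate) and their interaction were fitted with lmFit and eBayes of limma (version 3.58.1, R 4.3.3) and tested two-sided, with Benjamini-Hochberg adjustment over all 18834 probe sets. Genes were called at an adjusted p under 0.1 and, for genotype and series, a fold change over 1.2. An equal-variance t-test was also run, as the study names a Student t-test in its general statistics but not for the arrays. Exact permutation tests used all 12870 arrangements (smallest possible p 0.000155). The limma fits were tested on simulated data.

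The members, classes and lists were chosen with earlier results of these data known. Named genes were the 2 with the largest and the 1 with the smallest change of each class, members called in any comparison up to 6, members of opposite sign up to 6, and *Myh1*. Alternatives were centred arrays, other signal filters, series or replicate blocks, each series or genotype alone, array weights, other tests, averaged probe sets and left-out pools. Of 15 lists, genes with no probe set of their own were not analysed here. The cartilage, erythroid, endothelium, macrophage, neuron and Schwann, and housekeeping lists had genotype medians of -0.03, -0.0066, -0.08, 0.03, -0.05 and 0.0075, and that of dental mesenchyme was -0.01. Figures were drawn with Python 3.11.15 and matplotlib 3.10.9.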

Additional observations from a re-analysis of the deposited data

Results flagged for a closer look

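In the WT pools, 6 of the 46 genes had 1 pool far above the others, with a gap to the next pool, relative to the group's range, beyond Dixon's critical value for 8 samples. The pool was AZN_MolairesWT2 each time. *Myom2* was at 7.43 there, against 6.77 in the next WT pool, a gap of 0.594 of the range. *Casq2* was at 7.35, against 6.43 (0.594), *Cacna1s* at 6.88, against 6.44 (0.586), *Smpx* at 6.90, against 6.06 (0.574), *Tnnt2* at 9.98, against 8.88 (0.568), and *Tnnc1* at 9.33, against 8.09 (0.537). No member and no class mean of the *Rsk2-/Y* pools passed this limit. Over the 106 groups screened, chance flags about 1 in 20, and the 46 genes are not independent of each other.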

How the results depend on the processing

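None of the alternatives gave a genotype or interaction call among the members, including single pools left out, other filters and other tests. The genotype median stayed above 0 throughout, at 0.29 to 0.61 with 1 pool left out, 0.48 with arrays centred, 0.34 with array weights and 0.15 without both ABH_14A and AZN_MolairesMutant3. With these 2 pools left out, the class medians lay between 0.07 for membrane genes and 0.31 for embryonic isoforms.

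Some genes changed sign. In ABH alone *Tnni2* was at -0.054, *Myl2* at -0.064, *Cacng1* at -0.0095 and *Tcap* at -0.021, and in AZN alone *Ckm* was at 0.080. With array weights *Myl2* was at -0.0092 and *Tcap* at -0.034, and with centred arrays *Myl2* was at -0.0059. Without both pools *Tnni2* was at -0.040, *Tcap* at -0.045, *Myl3* at -0.0067, and 3 genes far from 0 with all pools were also below it, *Chrna1* at -0.0067 (0.50 with all pools), *Mybph* at -0.02 (0.28) and *Chrnd* at -0.03 (0.22). With 1 pool left out, *Myl2* lay between -0.025 and 0.042, *Tcap* between -0.022 and 0.043 and *Ckm* between -0.11 and 0.064.

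The count of 18 genes higher in AZN was 6 in *Rsk2-/Y* pools alone and 6 in WT pools alone, against 7.89% and 4.42% of all genes, 34 with array weights (5.81% of all genes) and 35 without both pools (5.38%). It lay between 12, without any 1 of 7 pools, and 37 without ABH_14A, and the cause was not tested. With any of the 19 *Trdn* probe sets the genotype median lay between 0.493 and 0.499, an alternative chosen after seeing the data.

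The AZN names share the numbers 1 and 3 between genotypes. Pools of the same number did not deviate together, with correlations of -0.03 and -0.01 over all probe sets tested, while the unnumbered AZN pools correlated at 0.68. In a replicate block of these numbers each block holds as many *Rsk2-/Y* as WT pools, so the genotype median of 0.49 could not change. The calls stayed at 0, and the block did not pair the unnumbered pools with each other.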
